A study of Mus musculus with 8 samples.

Results

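The 33 genes described here are those of glycolytic enzymes other than pyruvate kinase, of carriers that bring glucose in and take lactate out, and a set known for their response to low oxygen. They were chosen by name for their known function, with earlier results of these data known, and all 33 were found among the 22359 protein-coding genes of the mouse annotation used, on 14 chromosomes. The measurements are maps of 4 histone marks in tumors of Lewis lung carcinoma (LLC), a mouse lung cancer cell line that grows in C57BL/6J mice. LLC-NR is the line that is sensitive to VEGF-Trap, a decoy receptor that binds vascular endothelial growth factor, and LLC-R is the line derived from LLC cells by 5 rounds of selection in animals under continuous treatment with that drug. Both lines were grown under the skin of female C57BL/6J mice bought at 6 to 8 weeks of age, 10 mice per line, with no genetic change named for either line, and whether the mice of this experiment received the drug is not given in the labels. Chromatin of the dissected isografts was cut with micrococcal nuclease and precipitated with an antibody to H3K4me3, H3K9ac, H3K27me3 or H3K36me3, which gave 8 libraries, 1 for each mark in each line. An isograft holds host blood vessels, leukocytes and fibroblasts beside the tumor cells, and each library is a mixture of them. With 1 library per line and mark there is no replicate, so no test between the lines was possible and every difference below compares 2 libraries.

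Glycolysis splits glucose into pyruvate. Hexokinase, phosphoglucose isomerase, phosphofructokinase, aldolase and triosephosphate isomerase prepare the sugar. Glyceraldehyde-3-phosphate dehydrogenase, phosphoglycerate kinase, phosphoglycerate mutase, enolase and pyruvate kinase carry out the stage that pays back ATP, after which lactate dehydrogenase turns pyruvate into lactate. Tumors often run this pathway at a high rate even where oxygen is present. When oxygen is low, the prolyl hydroxylases that mark HIF-1alpha for destruction lose activity, and the HIF dimer binds DNA at a short core, ACGTG or GCGTG, near many of these genes. H3K4me3 and H3K9ac mark promoters in use, H3K27me3 is laid down by Polycomb over silent genes, and H3K36me3 is laid down in the body of genes as they are transcribed.

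Each library lists peaks by position only, all as long as the DNA around 1 nucleosome and with no height, and the libraries held 5660458 to 9101721 of them. The LLC-R library held 1.26 times as many peaks as the LLC-NR library for H3K27me3 and 1.36 times as many for H3K36me3, against 0.997 times for H3K4me3 and 0.919 times for H3K9ac. The paper lists more uniquely mapped reads in LLC-R than in LLC-NR for H3K27me3 and H3K36me3, and fewer for H3K4me3 and H3K9ac. The part of read depth in the numbers of peaks, and in the values below, was not tested. The number of peaks in a window cannot exceed the number of nucleosomes that fit there, and no promoter of the 33 genes held more than 9 in any library. Peaks were therefore counted by their midpoints in the promoter, from 1 kb before the transcription start site (TSS) to 0.5 kb past it, and in the gene body, from 0.5 kb downstream to the end of the gene, and each count was set against the mean of other protein-coding genes with a like number of CpG dinucleotides in the same library. The percentile of a gene is its rank among those genes. Gene-body H3K27me3 was less spread over genes in LLC-R, with an SD over all genes of 0.885 peaks per kb against 1.02 in LLC-NR, so the place of a gene among others is given beside its density.

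Of the 33 promoters, 26 held at least 1 ACGTG or GCGTG on either strand in the 250 bp upstream of the TSS. That is 78.8%, against 56.1% of promoters of like CpG content and 43.0% of all promoters. With ACGTG alone, the count was 17 of 33, or 51.5%, against 22% and 17.4%. Over the whole promoter window all 33 held the core, with a mean of 5.73 positions each against 4.2 in promoters of like CpG content, where 96.0% held it. The motif search read CACGT and CACGC as the same cores on the other strand, and CACGTG therefore counts as 2 overlapping positions. The upstream stretches of 4 genes are shown, those whose peaks are compared with the core below, read 5' to 3' on the strand of the gene from mm9 with the core letters in capitals.
Ldha, chr7:54100959-54101208, plus strand: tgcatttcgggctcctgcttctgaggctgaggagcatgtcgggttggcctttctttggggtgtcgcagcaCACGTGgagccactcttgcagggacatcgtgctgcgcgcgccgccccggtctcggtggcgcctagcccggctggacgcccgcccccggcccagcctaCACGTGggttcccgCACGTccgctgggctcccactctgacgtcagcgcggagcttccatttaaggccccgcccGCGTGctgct
Ankrd37, chr8:47085222-47085471, minus strand: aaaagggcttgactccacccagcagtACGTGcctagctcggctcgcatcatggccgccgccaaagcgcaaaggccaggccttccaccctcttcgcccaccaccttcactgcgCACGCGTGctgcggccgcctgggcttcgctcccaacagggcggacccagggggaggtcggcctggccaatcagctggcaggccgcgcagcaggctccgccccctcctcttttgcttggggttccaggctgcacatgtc
Pfkfb3, chr2:11423729-11423978, minus strand: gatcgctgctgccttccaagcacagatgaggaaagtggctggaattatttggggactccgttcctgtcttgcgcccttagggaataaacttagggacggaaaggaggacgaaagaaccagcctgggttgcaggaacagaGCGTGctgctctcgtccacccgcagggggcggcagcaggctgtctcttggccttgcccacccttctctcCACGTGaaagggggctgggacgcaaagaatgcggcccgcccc
Pgam1, chr19:41986111-41986360, plus strand: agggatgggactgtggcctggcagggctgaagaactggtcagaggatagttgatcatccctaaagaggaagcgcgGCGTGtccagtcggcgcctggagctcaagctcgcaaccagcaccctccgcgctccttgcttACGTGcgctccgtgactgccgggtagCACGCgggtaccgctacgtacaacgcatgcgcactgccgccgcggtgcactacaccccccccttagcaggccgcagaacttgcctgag
Ldha, lactate dehydrogenase A, had 6 core positions in these 250 bp, among them CACGTG at 2 places, and the other 3 had 3 each. No core was found in this stretch for Aldoc, Car9, Eno2, Gpi1, Lox, Mxi1 or Tpi1, which says only that these letters are absent from this window at the TSS used.

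The clearest pattern lay in the gene bodies. H3K27me3 was sparse over the genes of glycolysis in LLC-NR, at 0.97 peaks per kb over Gapdh, 1.29 over Ldha, 1.43 over Pgam1 and 1.48 over Gpi1, where genes of like CpG density had 3.25, 2.8, 2.9 and 2.84. H3K36me3 was denser than in genes of like CpG density over most of the 33. In LLC-NR, 28 of 33 gene bodies were at or above the like-CpG mean for H3K36me3 (84.8%, exact 95% binomial interval 68.1 to 94.9%, which covers the count over genes only), where 55.3% of all genes were. In LLC-R the count was 26 of 33 (78.8%, interval 61.1 to 91.0%), against 63.9% of all genes, a share that lies inside the interval. For H3K27me3, 8 of 33 were at or above the mean in LLC-NR (24.2%, interval 11.1 to 42.3%) against 48.8% of all genes. In LLC-R 9 of 33 were (27.3%, interval 13.3 to 45.5%) against 60.2%. Both conditions together, H3K36me3 at or above and H3K27me3 below, were met by 24 of 33 genes in LLC-NR (72.7%) and 20 of 33 in LLC-R (60.6%), against 36.7% and 24.8% of all other genes. Mean gene-body H3K36me3 of the 33 was 3.58 ± 0.516 peaks per kb in LLC-NR (SD over genes) against 3.07 for genes of like CpG density, and 4.2 ± 0.416 against 3.93 in LLC-R. Mean gene-body H3K27me3 was 2.38 ± 0.843 against 2.89 in LLC-NR and 3.61 ± 0.455 against 3.8 in LLC-R. The median percentile of the 33 was 76.0 and 76.9 for H3K36me3 and 29.9 and 32.7 for H3K27me3, LLC-NR first, so the median rank among genes of like CpG density was close in both lines. Single genes moved far in rank: for H3K27me3 Aldoc went from percentile 14.1 in LLC-NR to 97.1 in LLC-R, Slc2a1 from 14.9 to 55.2 and Ddit4 from 88.2 to 31.7, and for H3K36me3 Aldoa went from 76.9 to 18.0 and Pgam1 from 53.1 to 7.78. The counts of some hardly changed. Ddit4 held 7 and 6 H3K27me3 peaks over 1.6 kb. For H3K36me3 Aldoa held 14 and 14 over 4.3 kb, where the like-CpG mean was 11.3 and 16.2, and Pgam1 21 and 22 over 6.3 kb. Aldoc held 8 and 20 and Slc2a1 55 and 110 H3K27me3 peaks. In a mixture of cells, a mark carried by fewer cells and less of the mark per cell cannot be told apart.

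**Figure D1:**
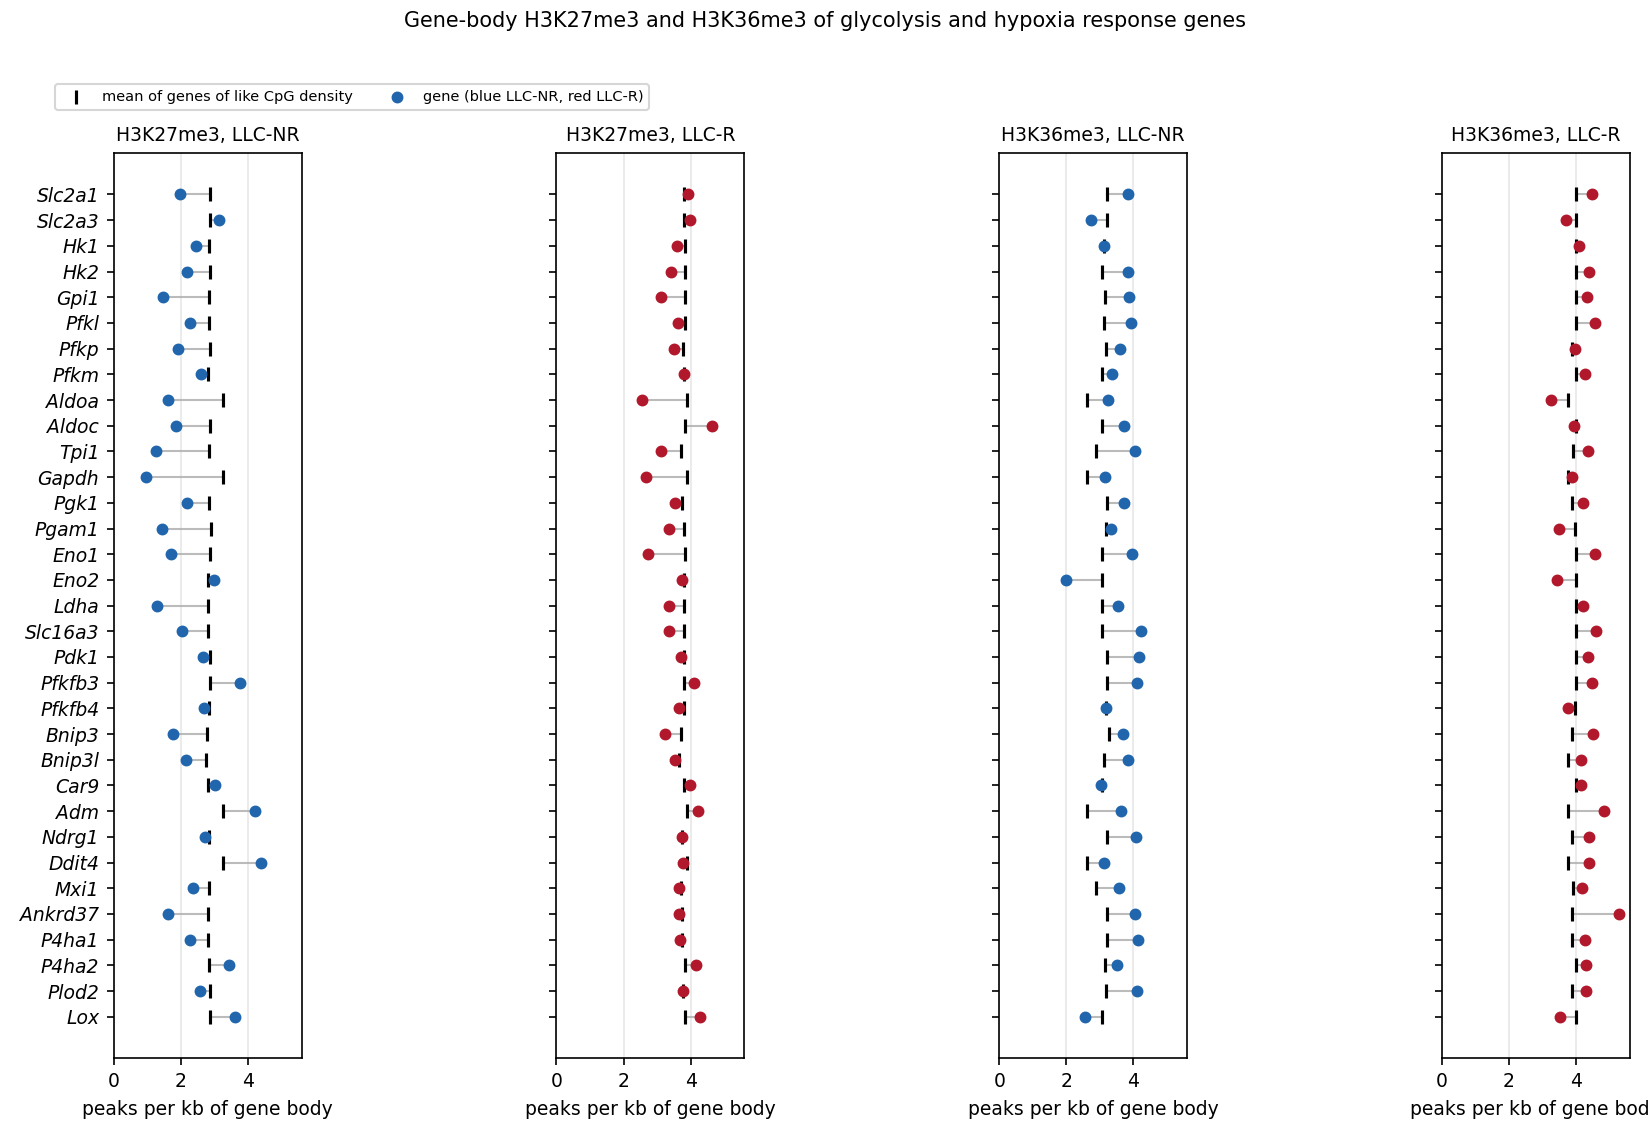
Peaks per kb of gene body (x axis) of the 33 genes (rows) for H3K27me3 and H3K36me3 in each line, 1 library per panel. Points are genes, blue in LLC-NR and red in LLC-R, black ticks are the mean of genes of like CpG density, and grey lines join each gene to its mean. Most H3K27me3 points lie left of their tick, far left for Gapdh, Ldha and Tpi1 in LLC-NR, and most H3K36me3 points lie right of it.

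The enzymes that prepare glucose had the mark of Polycomb at 1.96 peaks per kb in LLC-NR on average, against 2.89 in genes of like CpG density, and 0 of the 9 reached their like-CpG mean. Gpi1, phosphoglucose isomerase (chr7:34987141-35015308, minus strand, mm9), had 41 H3K27me3 peaks over 27.7 kb in LLC-NR, 86 in LLC-R, at percentiles 4.1 and 5.64. Aldoa, the aldolase of most tissues, had 7 and 11 peaks over 4.3 kb, at percentiles 8.21 and 5.75. Tpi1, triosephosphate isomerase (chr6:124760604-124764314, minus strand), had 4 and 10 peaks over 3.2 kb, at percentiles 5.74 and 13.4. These genes stayed in the lower ranks in both lines. Aldoc, the aldolase best known from brain, did not: it had 8 peaks in LLC-NR but 20 in LLC-R, at percentiles 14.1 and 97.1, over a body of only 4.3 kb. Pfkp, the platelet phosphofructokinase, was at percentiles 13.7 and 19.9. The other enzymes of this stage were closer to the middle in LLC-NR, with Hk1 at percentile 39.4, Hk2 at 26.1, Pfkl at 32.0 and Pfkm at 43.6. H3K36me3 was at or above the like-CpG mean in 8 of the 9 in LLC-NR, Hk1 alone being below it at 3.12 against 3.13 peaks per kb, and in 7 of the 9 in LLC-R.

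The enzymes of the second stage among the 33, with lactate dehydrogenase A and the lactate carrier Slc16a3, averaged 1.8 H3K27me3 peaks per kb in LLC-NR against 2.9. Gapdh (chr6:125111871-125116485, minus strand) had 4 H3K27me3 peaks over 4.1 kb in LLC-NR, 11 in LLC-R, at percentiles 3.7 and 6.98. Ldha had 12 and 31 peaks over 9.3 kb, at percentiles 4.01 and 14.8, and Pgam1, phosphoglycerate mutase, had 9 and 21 over 6.3 kb, at percentiles 3.99 and 11.1. Eno1, the enolase of most tissues, was low in both lines, with 20 and 32 peaks over 11.7 kb at percentiles 11.3 and 3.7. Pgk1, phosphoglycerate kinase on the X chromosome, was at percentiles 22.6 and 23.7, and Slc16a3 was at 20.8 and 15.6. Eno2, the enolase of neurons, stood apart from the other 6: it was the only one at or above the like-CpG mean in LLC-NR, with 2.98 against 2.8 H3K27me3 peaks per kb, and its mean H3K36me3 percentile over both lines, 8.43, was the lowest of the 33 genes. The Eno2 body (gene at chr6:124710071-124719691, minus strand) held 18 (LLC-NR) and 31 (LLC-R) H3K36me3 peaks over 9.1 kb, or 1.98 and 3.42 per kb against 3.07 and 4.01, at percentiles 9.04 and 7.81.

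Many glycolytic genes have processed pseudogenes, and reads that match several places were dropped by the authors. The part of this in the values above was not tested. The other marks in LLC-NR over 6 bodies, picked for their low H3K27me3 in that line, are given beside it, then all 4 marks in LLC-R. Gapdh held 3.65 H3K9ac peaks per kb in LLC-NR against 3.78 in genes of like CpG density, and 3.4 H3K4me3 peaks against 3.49. Tpi1 held 4.36 H3K9ac peaks per kb against 3.96, Ldha 4.31 against 4.07, Pgam1 3.97 against 4.01, Gpi1 3.98 against 4.07 and Aldoa 4.17 against 3.78. H3K4me3 was 3.43 against 3.1 at Tpi1, 3.12 against 3.02 at Ldha and 3.5 against 2.69 at Pgam1. At Gpi1 it was 2.93 against 2.79, and at Aldoa 3.71 against 3.49. H3K36me3 was 3.16 against 2.61 at Gapdh, 4.05 against 2.88 at Tpi1 and 3.55 against 3.07 at Ldha. At Pgam1 it was 3.34 against 3.18, at Gpi1 3.87 against 3.15 and at Aldoa 3.25 against 2.61. In LLC-R the H3K9ac densities were 4.67 against 3.66 at Tpi1, 4.17 against 3.44 at Aldoa and 4.01 against 3.74 at Gpi1, and 3.4 against 3.44 at Gapdh, 3.5 against 3.68 at Pgam1 and 3.23 against 3.75 at Ldha. H3K27me3 over the same bodies in LLC-R was 2.67 against 3.88 at Gapdh, 2.55 against 3.88 at Aldoa, 3.11 against 3.72 at Tpi1, 3.11 against 3.84 at Gpi1, 3.34 against 3.81 at Pgam1 and 3.34 against 3.79 at Ldha. H3K36me3 in LLC-R was below the mean at Aldoa (3.25 against 3.75) and Pgam1 (3.5 against 3.97). It was 3.89 against 3.75 at Gapdh, 4.36 against 3.9 at Tpi1, 4.34 against 3.99 at Gpi1 and 4.2 against 4.01 at Ldha. H3K4me3 in LLC-R was 3.25 against 3.37 at Aldoa, 3.89 against 3.37 at Gapdh and 3.74 against 3.07 at Tpi1. At Gpi1 it was 3.15 against 2.81, at Ldha 3.55 against 3.01 and at Pgam1 3.5 against 2.72.

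The genes that respond to low oxygen outside glycolysis varied in H3K27me3. Of the 15 genes in 4 groups, 6 were at or above the like-CpG mean in LLC-NR, where 48.8% of all genes were, and 6 in LLC-R, where 60.2% were. Of the kinases that set how much sugar enters glycolysis or leaves it for mitochondria, Pfkfb3 had 3.75 peaks per kb in LLC-NR against 2.88, while Pdk1 had 2.65 against 2.88 and Pfkfb4 2.68 against 2.84. Pfkfb3 was high in both marks in LLC-NR, at percentile 77.0 for H3K27me3 and 91.3 for H3K36me3. The signalling genes Adm, Ndrg1, Ddit4, Mxi1 and Ankrd37 averaged 3.06 against 3.0, with a wide range: Ddit4, an inhibitor of mTORC1, had 4.39 peaks per kb and Adm, the vessel-relaxing peptide adrenomedullin, 4.22, while Ankrd37 had 1.62. The bodies of Ddit4 and Adm are 1.6 and 1.7 kb long, so these densities rest on 7 peaks each. H3K36me3 was above the like-CpG mean in all 5 signalling genes in both lines, averaging 3.69 peaks per kb against 2.91 in LLC-NR and 4.61 against 3.83 in LLC-R. Of the mitophagy receptors, Bnip3 had 1.76 H3K27me3 peaks per kb in LLC-NR and Bnip3l 2.16, against 2.78 and 2.76, while Car9, a carbonic anhydrase of the cell surface and a widely used marker of hypoxia, had 3.03 against 2.8. The collagen-modifying enzymes P4ha1, P4ha2, Plod2 and Lox averaged 2.97 against 2.84. Lox, lysyl oxidase, had the second-lowest mean H3K36me3 percentile of the 33, at 17.9, with 2.56 peaks per kb (LLC-NR) and 3.53 (LLC-R), and its H3K27me3 was above the like-CpG mean in both lines, at 3.61 and 4.29 peaks per kb. Of the glucose carriers, Slc2a1 (GLUT1) had 1.96 H3K27me3 peaks per kb in LLC-NR and 3.92 in LLC-R, at percentiles 14.9 and 55.2. Slc2a3 (GLUT3) came next above Eno2 and Lox for H3K36me3, with a mean percentile of 22.1. The highest mean percentiles for H3K36me3 were those of Slc16a3 (94.7), Ankrd37 (93.8) and Adm (92.7).

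The enzymes of these steps have paralogs that are used in particular tissues, such as liver, muscle or testis, and 12 of those were read in the same way. The paralogs had 3.28 H3K27me3 peaks per kb in LLC-NR on average against 2.8 in genes of like CpG density, with 8 of 12 at or above the mean, and 9 of 12 in LLC-R. For H3K36me3, 3 of 12 reached the mean in LLC-NR but 9 of 12 in LLC-R. For the lists in this paragraph, the shares of all genes are 48.8% and 60.2% for H3K27me3 and 55.3% and 63.9% for H3K36me3, LLC-NR first. Pgam1 had 1.43 H3K27me3 peaks per kb and the muscle gene Pgam2 3.76. Ldha had 1.29 and the testis gene Ldhc 3.49. The muscle enolase Eno3 was an exception, with 1.66 peaks per kb beside 1.72 for Eno1. Of the 20 genes of the TCA cycle, the mitochondrial pathway that burns pyruvate, 3 were at or above the mean for H3K27me3 and 19 for H3K36me3 in LLC-NR, while LLC-R gave 7 and 18. In a further list of 25 glycolysis and hypoxia genes outside the 33, 11 of 25 were at or above the mean for H3K27me3 in LLC-NR, which is near the share of all genes, and 17 in LLC-R, and for H3K36me3 19 of 25 in each line. Pkm2, the pyruvate kinase gene, had 2.2 H3K27me3 peaks per kb against 4.12 for its liver and red cell paralog Pklr. Of the markers of host cells, 10 of 11 leukocyte, 9 of 9 endothelial and 9 of 9 fibroblast genes were at or above the mean for H3K27me3 in LLC-NR, while LLC-R gave 7, 9 and 9. For H3K36me3 the counts were 1 of 11, 0 of 9 and 5 of 9 in the LLC-NR library against 6, 2 and 7 in that of LLC-R, and the fibroblast markers were near the share of all genes in LLC-NR. Of the markers of lung epithelium, 8 of 10 were at or above the mean for H3K27me3 in each line, and 6 and 5 of 10 for H3K36me3. The share of host cells in each tumor was not measured, and its part in these values was not tested.

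**Figure D2:**
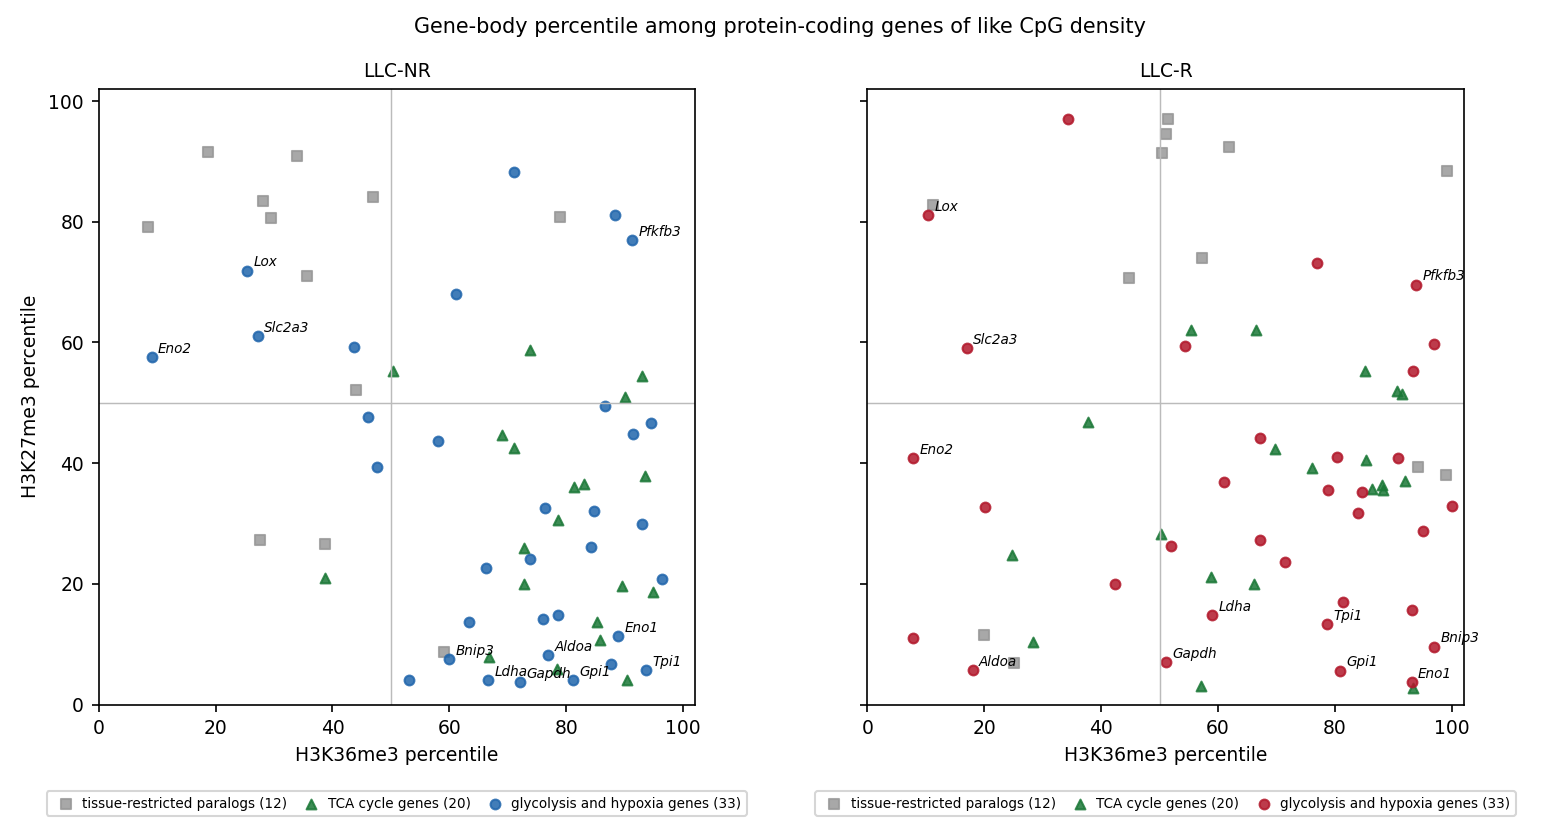
Percentile of gene-body H3K36me3 (x axis) against that of gene-body H3K27me3 (y axis) among genes of like CpG density, LLC-NR on the left and LLC-R on the right. Circles are the 33 glycolysis and hypoxia genes, triangles 20 TCA cycle genes and squares 12 tissue-restricted paralogs, and the grey lines mark the 50th percentile. Most circles and triangles lie to the lower right, while most squares lie to the upper left in LLC-NR.

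Along the gene, the surplus of H3K36me3 over genes of like CpG density was present in every part. Dividing each body into 3 equal parts, the 33 genes had 3.37, 3.7 and 3.66 H3K36me3 peaks per kb in LLC-NR from the 5' to the 3' part, against 2.94, 3.11 and 3.15. The H3K27me3 values were 2.43, 2.42 and 2.29 against 2.94, 2.88 and 2.85. H3K4me3 ran past the promoter: from 0.5 to 3 kb downstream of the TSS the 33 genes had 3.99 H3K4me3 peaks per kb in LLC-NR against 3.56, a ratio of 1.12, and 3.92 against 3.31 in LLC-R, a ratio of 1.18. Over whole bodies, 24 and 23 of 33 genes were at or above the like-CpG mean for H3K4me3 in LLC-NR and LLC-R, where all genes gave 53.0% and 54.1%. For H3K9ac they were 25 and 22 of 33, where all genes gave 66.3% and 63.5%. In LLC-NR the gap in H3K27me3 was present from the start of the gene. In the 0.5 kb downstream of the TSS the 33 genes had 2.48 ± 1.66 peaks per kb in LLC-NR against 3.32, a ratio of 0.749, and 3.45 ± 1.6 against 3.7 in LLC-R, a ratio of 0.934. From 5 to 1 kb upstream the ratios were 0.97 and 1.02, LLC-NR first. They were 1.05 and 0.957 from 1 to 0.15 kb upstream, and 0.996 and 0.957 from there to the TSS. In LLC-R the ratio just downstream was thus close to those just upstream.

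**Figure D3:**
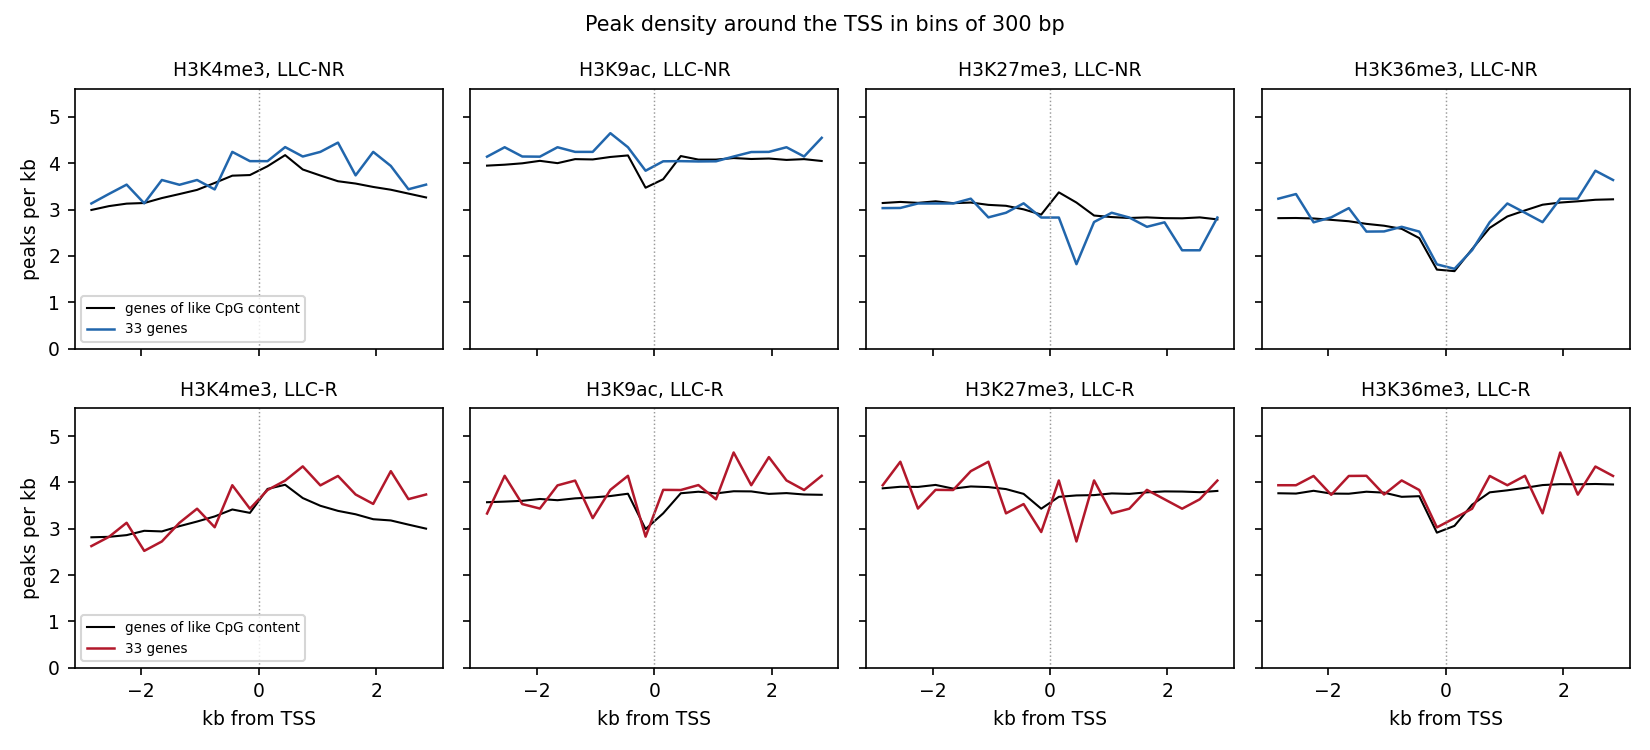
Mean peaks per kb (y axis) in bins of 300 bp by distance from the TSS in kb (x axis), for the 33 genes (blue in LLC-NR, red in LLC-R) and for genes of like CpG content (black), 1 library per panel. The H3K27me3 line of the 33 genes lies under the black line just downstream of the TSS in LLC-NR, and H3K4me3 lies above it downstream of the TSS in both lines.

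At the promoters the 33 genes were near other genes of like CpG content. They held 6.0 ± 1.2 H3K4me3 peaks in LLC-NR against 5.69, and 5.64 ± 1.17 against 5.28 in LLC-R. At or above the like-CpG mean were 19 of 33 in LLC-NR (57.6%, where all genes gave 53.7%) and 20 of 33 in LLC-R (60.6%, all genes 56.7%). H3K9ac gave 6.39 ± 0.899 peaks against 5.87 in LLC-NR, with 25 of 33 at or above the mean (75.8%, all genes 61.7%), and 5.55 ± 0.971 against 5.25 in LLC-R, with 20 of 33 (60.6%, all genes 54.1%). For H3K27me3 the means were 4.36 ± 1.58 against 4.66 in LLC-NR and 5.27 ± 1.64 against 5.55 in LLC-R. At or above the mean were 18 and 16 of 33 (54.5% and 48.5%), where all genes gave 59.2% and 61.4%. The median H3K27me3 percentile in LLC-R was 34.2, against 54.2 for all other genes. H3K36me3 is low at starts, and 18 (LLC-NR) and 19 (LLC-R) of 33 promoters were at or above its like-CpG mean, where all genes gave 51.0% and 55.1%. The promoters of these 33 genes are richer in CpG than most, with a median of 74.0 CpG in 1.5 kb against 49.0 for all genes.

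**Figure D4:**
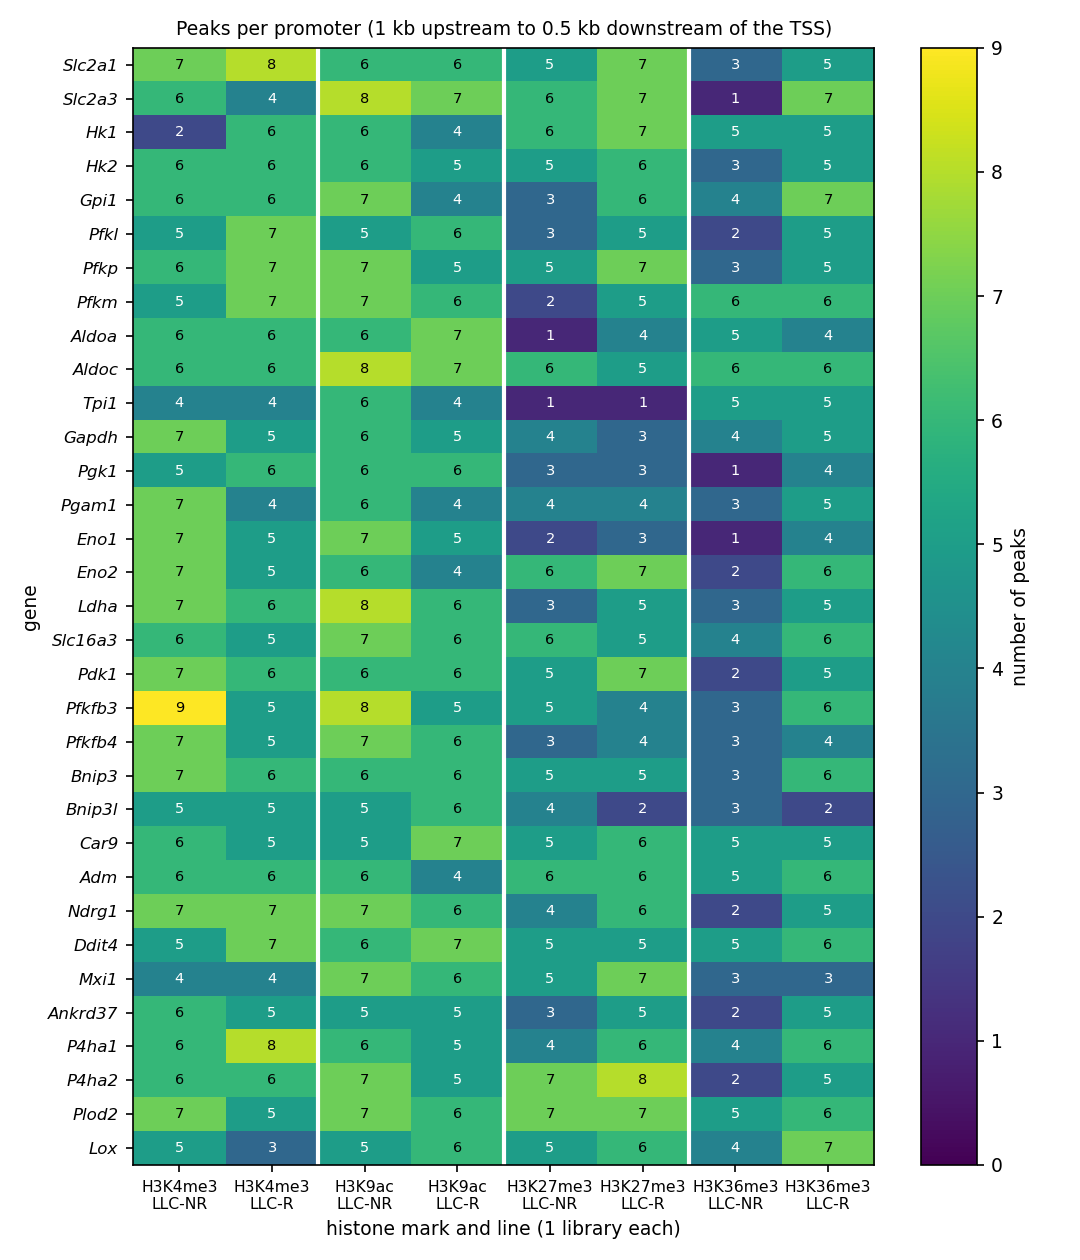
Number of peaks (colour and printed number) in the promoter of each of the 33 genes (rows) for the 4 marks in the 2 lines (columns), 1 library per column. H3K4me3 and H3K9ac lie mostly between 4 and 8 peaks, the lowest H3K27me3 counts are those of Tpi1 in both lines and Aldoa in LLC-NR, with 1 peak each, and H3K36me3 counts are higher in LLC-R at 25 of the 33 genes, as they are at 78.1% of all genes.

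Among the 33, the highest mean H3K4me3 percentiles over both lines were those of Aldoc (90.8), Slc2a1 (85.1) and Gapdh (83.5). Aldoc held 6 peaks in each line where its CpG-poor like held 3.85 and 3.64, and its window also holds part of Spag5. Slc2a1 held 7 in LLC-NR, 8 in LLC-R. Gapdh held 7 and 5 at the TSS used, a window with 30 CpG, and 6 and 6 at another coding start 1174 bp downstream with 83 CpG. The lowest were Mxi1 (8.41), a partner of Max that opposes Myc, Bnip3l (16.1) and Tpi1 (21.2). Mxi1 held 4 H3K4me3 peaks in each line at the TSS used, but 8 and 7 at another coding start 19940 bp downstream that has 131 CpG. Tpi1 held 4 and 4 H3K4me3, 6 and 4 H3K9ac and 1 and 1 H3K27me3 peaks at the TSS used. At another coding start 1226 bp downstream Tpi1 held 6 and 7, 6 and 8 and 2 and 4. The ranks given here are those at the TSS used. For H3K9ac the highest were Slc2a3 with 8 and 7 peaks, Aldoc with 8 and 7, and Ldha with 8 and 6, and the lowest were Ankrd37 with 5 and 5, Eno2 with 6 and 4, and Tpi1 with 6 and 4. The windows of Ankrd37, Eno2 and Tpi1 hold parts of Lrp2bp, Lrrc23 and Usp5. H3K27me3 was highest at P4ha2 with 7 and 8 peaks, Plod2 with 7 and 7 and Slc2a3 with 6 and 7, and lowest at Tpi1 with 1 and 1, Eno1 with 2 and 3 and Aldoa with 1 and 4. All 4 collagen-modifying genes were above the like-CpG mean for promoter H3K27me3 in LLC-R, and 3 of 4 in LLC-NR. Of all genes, 61.4% and 59.2% were at or above it, LLC-R first. Lox and P4ha1 held 6 peaks each in LLC-R, against means of 5.64 and 5.5.

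Between the lines, a promoter was taken as different when its count relative to the like-CpG mean, with 0.5 peaks added to each, differed by 1.5-fold or more. The calls depend on this scale: with uniquely mapped reads as the scale, 5 of the 33 promoters are higher and 0 lower in LLC-R for H3K4me3, 19 and 0 for H3K9ac and 0 and 25 for H3K27me3. On that scale all genes gave 14.6 and 4.43% for H3K4me3, 59.6 and 1.01% for H3K9ac and 1.38 and 74.2% for H3K27me3. The counts of the 33 are near these shares. For H3K4me3, 1 of 33 genes was higher in LLC-R, where 8.37% of all genes were, and 2 were lower, where 8.55% were. Hk1, hexokinase 1 (chr10:61731603-61842656, minus strand), held 2 H3K4me3 peaks in the LLC-NR library but 6 in that of LLC-R, against 4.06 and 3.92 in genes of like CpG content, a log2 ratio of 1.42. Hk1 has 7 coding starts, and at the one with the most CpG, 34558 bp downstream of the TSS used, the counts were 6 and 7, while 4808 bp upstream of the TSS used they were 5 and 6. At the RefSeq start nearest to the TSS used, Hk1 is not past the fold. Pfkfb3, the kinase that makes the activator of phosphofructokinase, held 9 peaks in LLC-NR, more than the other 32 in any library, but 5 in LLC-R, a log2 ratio of -0.69. Pgam1 held 7 and 4, a log2 ratio of -0.62. H3K9ac gave 8 and 5 peaks at Pfkfb3 and 6 and 4 at Pgam1. At Hk1 it went the other way from H3K4me3, with 6 and 4 peaks (log2 ratio -0.4). Each of these was short of the fold. Only Gpi1 passed it for H3K9ac, with 7 peaks in LLC-NR but 4 in LLC-R (log2 ratio -0.59). That is 0 genes higher and 1 lower in LLC-R for this mark, where 5.07% and 6.11% of all genes were.

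For promoter H3K27me3, 3 of 33 genes were higher in LLC-R and 2 lower, against 11.9% and 4.57% of all genes. Aldoa held 1 peak in LLC-NR but 4 in LLC-R (log2 ratio 1.35), Pfkm, the muscle phosphofructokinase, 2 and 5 (0.93), and Gpi1 3 and 6 (0.64). The Pfkm window also holds part of Senp1. Even with its higher count in LLC-R, Aldoa stayed below the like-CpG mean of 5.64, at percentile 10.9. The genes with fewer were Bnip3l, with 4 and 2 peaks (log2 ratio -1.08), and Gapdh, with 4 and 3 (-0.59). Promoter H3K36me3 was higher in LLC-R at 4 of 33 genes, where 17.1% of all genes were, and lower at 3, where 11.8% were. The former were Slc2a3 with 1 and 7 peaks, Pgk1 with 1 and 4, Eno1 with 1 and 4 and Eno2 with 2 and 6. The latter were Bnip3l with 3 and 2, Aldoa with 5 and 4 and Mxi1 with 3 and 3, since the like-CpG mean was higher in LLC-R. These shares are near those of all genes, and counts this small move by 1 or 2 peaks without any known measure of their error.

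In gene bodies, which hold more peaks, a gene was taken as different when its relative density in LLC-R was higher by 25% or lower by 20%, or more. With uniquely mapped reads as the scale, 0 genes are higher and 33 lower for H3K36me3, and 0 higher and 23 lower for H3K27me3. The shares of all genes on that scale are not given here, so these counts show nothing particular to the 33. For H3K36me3, Eno2 alone was higher in LLC-R (log2 ratio 0.39), where 15.0% of all genes were, and Aldoa alone lower, with 14 peaks in each line (log2 ratio -0.50), where 5.64% were. For H3K27me3, 11 of 33 genes were higher in LLC-R (33.3%), where 21.8% of all genes were, and Ddit4 alone was lower (log2 ratio -0.44), where 13.8% were. The 11 genes were Slc2a1, Gpi1, Pfkp, Aldoa, Aldoc, Tpi1, Gapdh, Pgam1, Ldha, Bnip3 and Ankrd37, with log2 ratios from 0.37 at Aldoa to 1.1 at Gapdh. All 11 were among the 12 of the 33 that lay under percentile 20 in LLC-NR. Of the 3907 other genes under percentile 20 in LLC-NR, 73.4% were likewise higher in LLC-R, and of those at percentile 80 and over 0.0% were, while 47.2% were lower. In LLC-R, 11 of the 33 were under percentile 20. For H3K4me3 in gene bodies, Eno2 was higher (1.98 and 2.54 peaks per kb) and Ddit4 lower (4.39 and 3.13), where 7.86% and 7.18% of all genes were. For H3K9ac, Ddit4 was higher (3.76 and 4.39) and no gene was lower, where 2.7% and 3.34% were.

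Over the 1 Mb on either side of the TSS, the log2 ratio of LLC-R to LLC-NR peaks relative to the whole library ran from -0.19 to 0.2 for H3K4me3 and from -0.07 to 0.09 for H3K9ac, inside the central 95% of all genes at each of the 33. For H3K27me3 Ndrg1 alone lay outside, at -0.19, and for H3K36me3 Bnip3 alone, at 0.32. No gene left that range in more than 1 mark.

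Since counts of peaks are bounded, positions were compared too. Of the 198 H3K4me3 peaks in the 33 promoters in LLC-NR, 79 had an LLC-R peak with its midpoint within 20 bp (39.9%, interval 33 to 47.1%), against 42.3% in promoters of like CpG content. For H3K9ac the share was 87 of 211 (41.2%) against 43.8%, and for H3K36me3 38 of 112 (33.9%) against 34.4%. For H3K27me3 it was 39 of 144 (27.1%, interval 20 to 35.1%) against 34.5%. Within a line, H3K4me3 peaks were set against H3K27me3 peaks in the same way. In the 33 promoters, 42 of 186 H3K4me3 peaks in LLC-R had an H3K27me3 peak within 20 bp (22.6%, interval 16.8 to 29.3%) against 33.6%, and 50 of 198 in LLC-NR (25.3%, interval 19.4 to 31.9%) against 30.5%. The share with an H3K9ac peak was also under that of promoters of like CpG content. It was 54 of 186 in LLC-R (29.0%, interval 22.6 to 36.1%) against 33.6%, and 80 of 198 in LLC-NR (40.4%, interval 33.5 to 47.6%) against 45.8%. The intervals take the peaks of a promoter as independent. Pfkm kept the position of 5 of its 5 H3K4me3 peaks between the lines, and Slc2a1 and Ndrg1 5 of 7 each, whereas Hk1 and Lox kept none.

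The HIF core letters lay inside peaks about as often as in other promoters. Of 189 core positions in the 33 promoter windows, 122 fell within an H3K4me3 peak in LLC-NR (64.6%) and 107 in LLC-R (56.6%), against 60.2% and 55.9% of core positions in promoters of like CpG content. H3K9ac covered 106 and 90 (56.1 and 47.6%, against 54.0 and 47.4% in promoters of like CpG content). H3K27me3 covered 97 and 97 (51.3% in each, against 47.4 and 53.6%), and H3K36me3 48 and 83 (25.4 and 43.9%, against 26.2 and 45.6%). At Ldha the H3K4me3 peak centred 101 bp upstream of the TSS in LLC-NR and that centred 88 bp upstream in LLC-R each covered 3 of the 6 core positions printed above. An H3K9ac peak centred 78 bp upstream covered 4 of them in LLC-NR, and in LLC-R no H3K9ac peak covered any. At Ankrd37 the H3K4me3 peaks at -168 bp in LLC-NR and -173 bp in LLC-R covered all 3 positions, and no H3K9ac peak covered one in either line. Pfkfb3 and Pgam1, both taken above as lower in LLC-R for promoter H3K4me3, differed between the lines here. At Pfkfb3 the H3K4me3 peak centred 40 bp upstream in LLC-NR covered all 3 positions and no peak did in LLC-R, where the nearest was centred at 52 bp downstream. At Pgam1 the peak centred at -131 bp in LLC-NR covered all 3, and that at -207 bp in LLC-R covered 1. A core inside a peak does not show that HIF was bound there, and no factor was mapped in these samples.

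**Figure D5:**
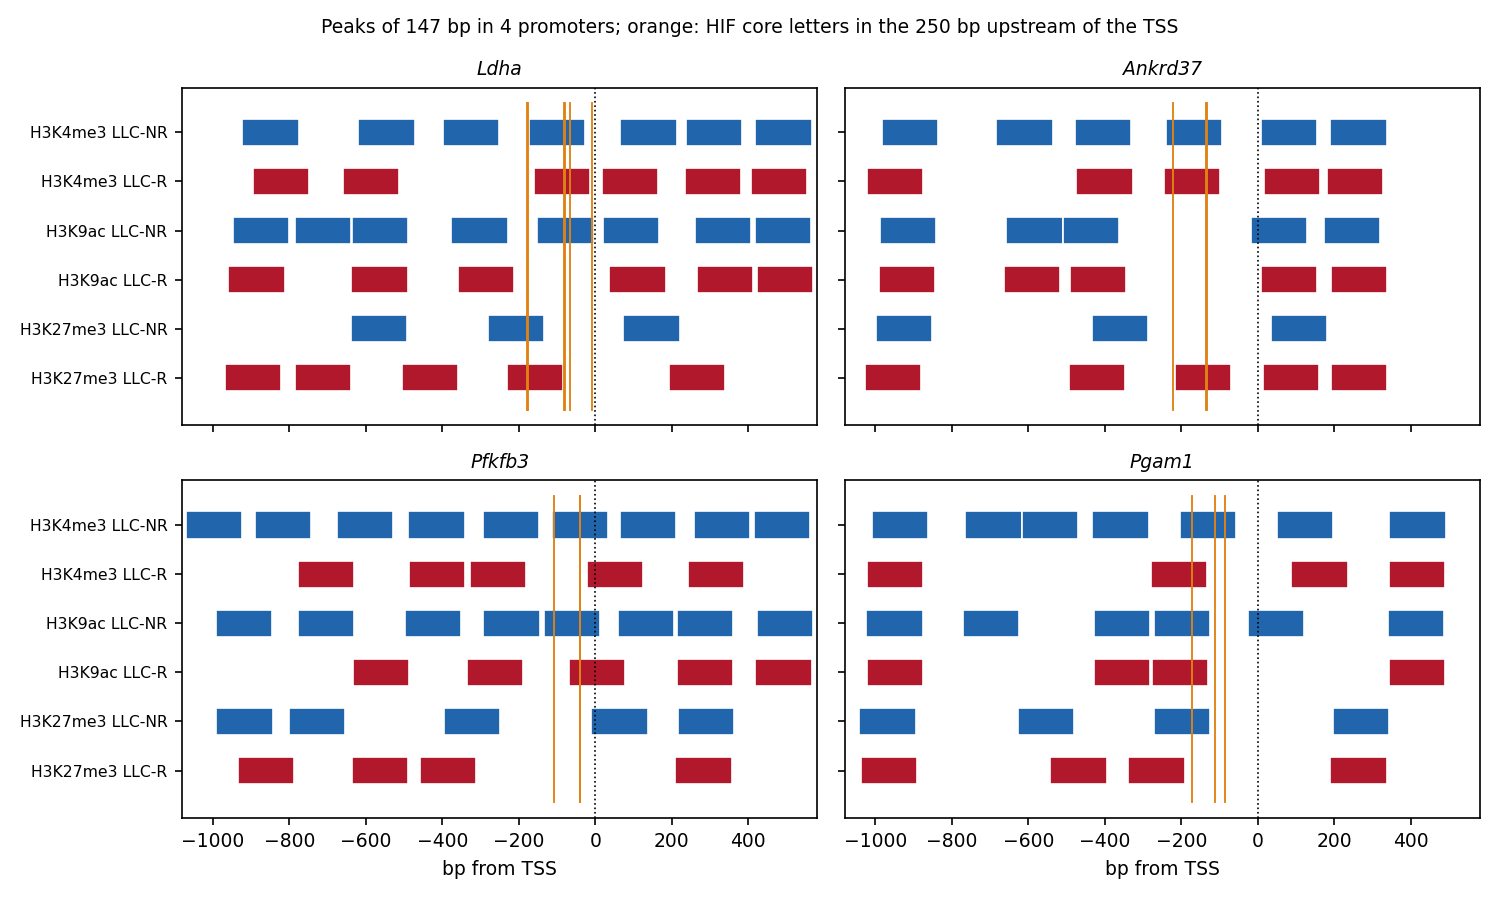
Peaks of H3K4me3, H3K9ac and H3K27me3 (bars, blue in LLC-NR and red in LLC-R) in the promoters of Ldha, Ankrd37, Pfkfb3 and Pgam1 by distance from the TSS in bp (x axis), 1 library per row. Orange lines are the HIF core positions in the 250 bp upstream of the TSS; they lie under an H3K4me3 peak in both lines at Ankrd37, and at Pfkfb3 in LLC-NR alone.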

How the data were processed

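The 8 ChIP-seq libraries cover 4 histone marks in isografts of LLC-NR and LLC-R. Mapping by the authors used Bowtie 0.12.7 on mm9 (no more than 2 mismatches), non-unique reads were dropped, and GeneTrack then called peaks per library, with settings that are not given in the sources used here. The deposited files give the start and end of each peak, all of 1 width and not overlapping, with no height, strand or input library, so a number of peaks is bounded by the nucleosomes that fit a window. The intervals cover counting error only, and the main values were not scaled by read depth.

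Peak midpoints were counted in Python 3.11.15 (NumPy 2.4.6, pandas 2.3.3, SciPy 1.17.1, Matplotlib 3.10.9) around GENCODE vM1 genes. Protein-coding transcripts starting within 100 bp shared a TSS, and the best supported TSS was used, the most upstream on ties. For 28 of the 33 genes mm9 RefSeq gave a start, 23 within 100 bp of it. Genes were placed in 20 bins of equal size by CpG content, and members were left out of the means of their bins. Bodies of at least 1 kb were used, 19564 of 22359 genes and all 33 members. The change was ((LLC-R peaks + 0.5)/(like-CpG mean + 0.5)) over the same in LLC-NR. Scripts were tested on simulated data. No p-value was computed. Members and gene lists were chosen with earlier results of these data known. Values are given for the members past the fold in any promoter mark or gene-body H3K36me3, the 3 highest and 3 lowest by mean percentile per mark, and those with another gene in the promoter window. Of 30 other glycolysis and hypoxia genes 26 were found by symbol.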

Additional observations from a re-analysis of the deposited data

How the results depend on the processing

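Of 214 alternative values for 25 results, 144 stayed within 1.5 times the main count or within its interval. This rule leaves out the share of all genes, so a count can stay within it and lose its surplus. Promoter H3K9ac in LLC-NR did, at 18 of 33 within 2 kb of the TSS, where 62.7% of all genes were at or above the mean. The counts of gene bodies at or above the like-CpG mean for H3K36me3 in both lines and for H3K27me3 in LLC-NR stayed within the rule under every alternative run. Against all protein-coding genes, those of promoter H3K4me3 in LLC-NR and gene-body H3K27me3 in LLC-R became 30 and 18. Promoter H3K27me3 in LLC-NR became 10 with any overlap in place of the midpoint and 8 within 0.5 kb of the TSS.

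Counts of genes that differ between the lines depended on scaling. Numbers are genes higher, then lower in LLC-R. They show how far a call moves with the setting. The share of all genes is not given beside them here, so they are not results about the 33. Promoter H3K36me3 was not recomputed, and the counts for gene-body H3K27me3 and all their alternatives were added after seeing the data. With uniquely mapped reads as the scale, promoter H3K4me3 gave 5 and 0, H3K9ac 19 and 0, H3K27me3 0 and 25, gene-body H3K36me3 0 and 33 and H3K27me3 0 and 23. With no scaling, promoter H3K27me3 gave 6 and 1, gene-body H3K36me3 9 and 0 and H3K27me3 28 and 0, and H3K9ac lower gave 2. With all peaks, gene-body H3K27me3 gave 17 and 2, and H3K36me3 lower gave 10. With peaks within 1 Mb, H3K9ac gave 1 and 0, gene-body H3K36me3 0 and 6, H3K27me3 17 and 2, and promoter H3K27me3 lower gave 4. Of the windows, 0.5 kb on either side gave 2 and 4 for H3K4me3 and 5 higher for H3K27me3, 2 kb on either side gave 0 lower for promoter H3K4me3, H3K9ac and H3K27me3, any overlap gave 5 higher for H3K27me3 and 2 lower for H3K9ac, and the nearest RefSeq start, also added then, gave 0 and 1 for H3K4me3, 1 lower for promoter H3K27me3 and 2 lower for gene-body H3K36me3. All genes as background gave 1 higher for H3K9ac, 0 lower for gene-body H3K36me3 and 2 lower for H3K27me3. From 0.5 to 3 kb, gene-body H3K36me3 gave 5 and 7 and H3K27me3 5 lower, the 3' part of the gene gave 3 lower for H3K36me3, and bodies of at least 5 kb, added then too, gave 0 lower for H3K36me3 and 6 and 0 for H3K27me3. A pseudocount of 1 gave 1 lower for H3K4me3, 0 for H3K9ac and 1 for H3K27me3. A fold of 2 gave 0 lower for H3K4me3 and H3K9ac and 1 and 1 for H3K27me3, and a fold of 1.5 in bodies gave 0 and 0 for H3K36me3 and 0 lower for H3K27me3. The shares of peaks with a matching position became 30.3 and 49.5% (H3K4me3), 33.2 and 52.1% (H3K9ac) and 13.9 and 38.9% (H3K27me3) at 10 and 40 bp, and 46.4% for H3K36me3 at 40 bp. No paired analysis was possible because there is 1 library per line and mark. The cause of these shifts was not tested.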
